A study of Homo sapiens with 7 samples.

Results

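The collagen genes of NGP, a MYCN-amplified line from a human neuroblastoma, were followed across control cells and lines with mutations in ARID1A, which encodes a DNA-binding part of the BAF remodeller of chromatin. Members were the entries of the deposited expression tables whose symbol is COL, a number, A and a number, with nothing after it. There were 44 such entries among 28517, so antisense and pseudogene entries were left out. RNA was sequenced in 7 libraries. The control cells, ARID1A-/- line 1 and ARID1A-/- line 2 each had 2 libraries, 1 from the SMARTer Universal Low Input kit and 1 repeat from the KAPA mRNA HyperPrep kit, while the ARID1A+/- line had 1 KAPA library. All cells, the control included, were cultured with puromycin, per the labels. The labels do not say how the mutations were made, whether a line grew from 1 cell, or whether the repeat came from a separate culture, so a p-value here speaks only of how far these libraries spread, a spread that may be technical.

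Collagens are proteins of the extracellular matrix in which chains wind into a triple helix. Fibrillar collagens (types I, II, III, V, XI, XXIV and XXVII) assemble into fibrils, type IV collagens form the sheet of basement membranes, and FACIT collagens (fibril-associated collagens with interrupted triple helices) attach to fibrils. Type VI collagen forms beaded microfibrils, multiplexins such as COL18A1 sit in basement membranes, and transmembrane collagens are held in the cell surface. Collagen chains are hydroxylated and folded in the endoplasmic reticulum, exported in COPII carriers and trimmed outside the cell.

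Most collagen genes had low mean levels. Levels are given in RPKM (reads adjusted for entry length and library total), which allows a comparison between genes. Of the 44 members, 16 had a mean of at least 0.5 RPKM over the 6 control and ARID1A-/- libraries and were tested, and 28 lay below that minimum. Of these 28, 22 stayed under 0.5 RPKM in all 7 libraries and 16 stayed under 0.1 RPKM, and COL4A5 had 0 counts in every library. Those under 0.1 RPKM were COL1A2, COL5A3, COL11A2 and COL24A1 (fibrillar), COL4A3 to COL4A6 (type IV), COL9A1, COL12A1, COL20A1 and COL22A1 (FACIT), COL8A1 and COL8A2 (short-chain network), COL15A1 and COL17A1. COL2A1, COL6A5, COL9A3, COL10A1, COL21A1 and COL28A1 reached 0.1 but not 0.5 RPKM in some library, and COL6A3, COL7A1, COL13A1, COL14A1, COL19A1 and COL27A1 reached 0.5 RPKM in at least 1. The members just inside the minimum were COL23A1 (mean 0.612 RPKM) and COL5A1 (0.835), and those just outside it were COL7A1 (0.467) and COL14A1 (0.405). The tested members were COL1A1, COL3A1, COL5A1, COL5A2 and COL11A1 among the fibrillar genes, COL4A1 and COL4A2 of type IV, COL9A2 and COL16A1 of the FACITs, COL6A1, COL6A2 and COL6A6 of type VI, COL18A1, COL23A1, COL25A1 and COL26A1. A member that passed through 1 group alone had to differ, so counts of changed members describe these 16 and not the whole family. COL16A1 was such a member, with a mean of 10.2 RPKM in the control, 0.259 in line 1 cells and 0.041 in line 2 cells.

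**Figure D1:**
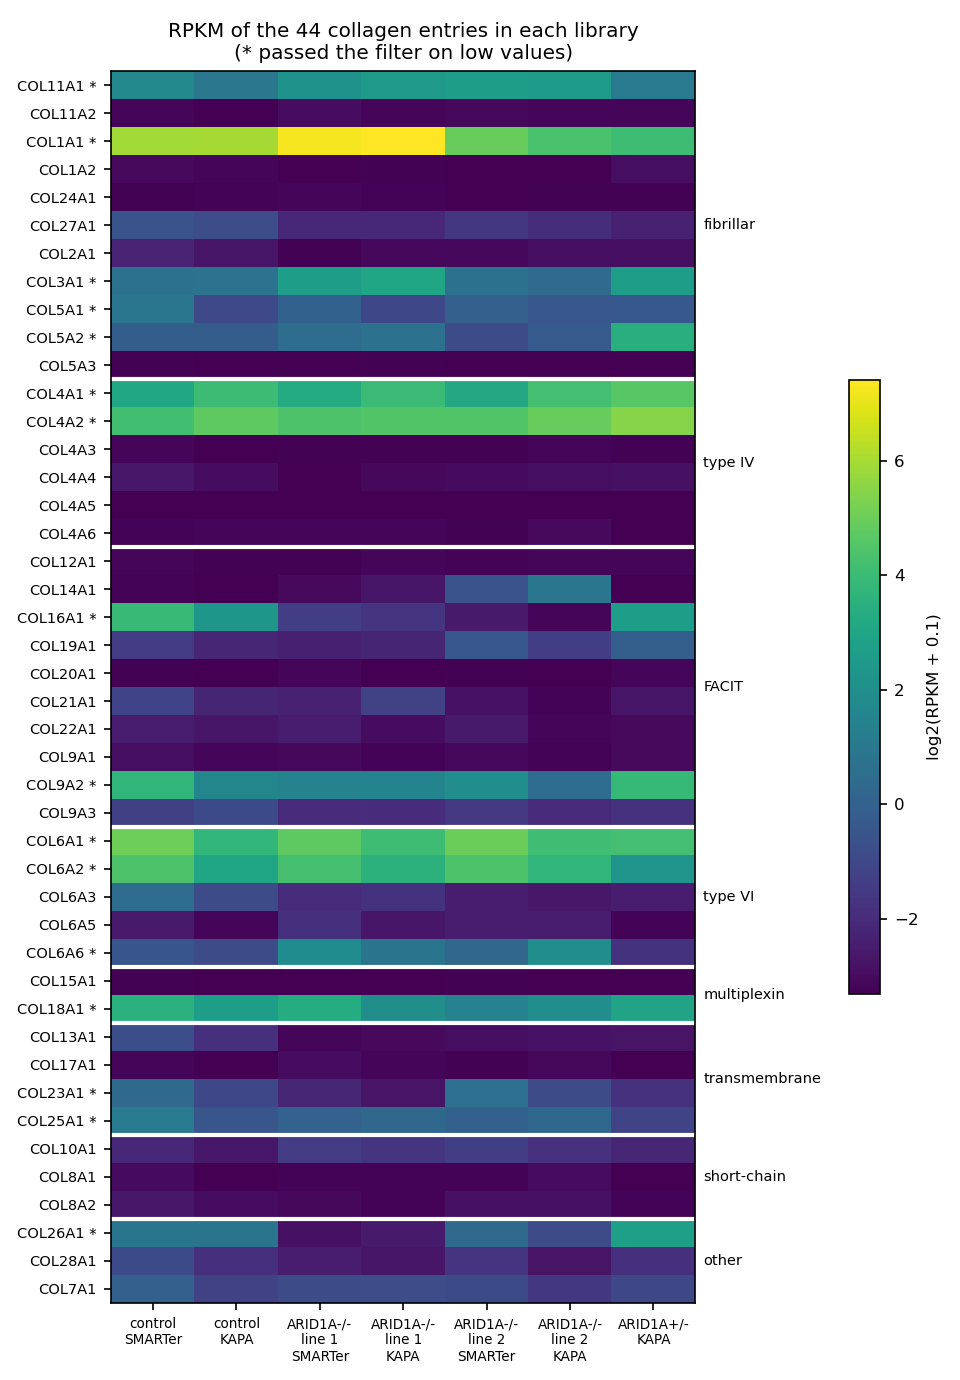
Heat map of the 44 collagen entries (rows, grouped by class) in the 7 libraries (columns), coloured by log2(RPKM + 0.1). Most rows are dark in every library, while COL1A1, COL4A1, COL4A2, COL6A1 and COL6A2 are bright in all, and COL16A1 is bright in the control and ARID1A+/- libraries only.

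The libraries held between 24445301 and 43644361 counts, of which collagen entries took between 0.0718% and 0.155%. ARID1A RNA itself stood at 22.3 and 22.0 RPKM in the control, 16.7 and 17.2 in line 1 cells, 14.2 and 13.8 in line 2 cells and 19.9 in the ARID1A+/- line (here and below the SMARTer value comes before the KAPA value). A gene-level count does not read the mutated site, so it does not check whether the protein was lost. The neuroblastoma genes HAND2 (276 to 349 RPKM), GATA3 (70.8 to 154) and PHOX2A (131 to 437) were high in all 7 libraries. Of 6 endothelial markers 5 stayed under 0.1 RPKM throughout, and so did SOX10 and ERBB3, which mark Schwann cells and the neural crest. Libraries of the same kit deviated together from their group means, so the kit was a term of the model.

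Promoter sequences are shown for the members on which the results turn and for which a sequence was at hand. RefSeq windows of 300 bases (250 before and 50 after a start, build GRCh38.p14, while the deposited values were made on hg19) matched 32 of the 44 members in 44 windows. COL4A1 and COL4A2, the main chains of basement membranes, are transcribed in opposite directions from starts with 126 bases between them. In the COL4A2 window (chr13:110307034-110307333, plus strand) these 126 bases are in capitals.
COL4A2: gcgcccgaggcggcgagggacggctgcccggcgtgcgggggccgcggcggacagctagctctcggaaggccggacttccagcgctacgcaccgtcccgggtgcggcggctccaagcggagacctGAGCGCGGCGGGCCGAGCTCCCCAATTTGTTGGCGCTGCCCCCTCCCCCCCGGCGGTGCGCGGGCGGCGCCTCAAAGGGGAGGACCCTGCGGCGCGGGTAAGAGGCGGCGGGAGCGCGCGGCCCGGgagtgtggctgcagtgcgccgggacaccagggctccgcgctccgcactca
In the windows of COL16A1 (chr1:31703968-31704267, minus strand), which fell in both ARID1A-/- lines, and COL23A1 (chr5:178590344-178590643, minus strand), which fell in line 1, the capitals mark the GC box GGGCGG, searched on both strands.
COL16A1: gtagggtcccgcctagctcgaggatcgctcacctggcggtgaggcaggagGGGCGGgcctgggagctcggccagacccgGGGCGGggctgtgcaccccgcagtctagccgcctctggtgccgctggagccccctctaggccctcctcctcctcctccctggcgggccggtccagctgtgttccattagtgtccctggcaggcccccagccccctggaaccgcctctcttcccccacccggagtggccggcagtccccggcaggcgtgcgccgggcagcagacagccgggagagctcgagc
COL23A1: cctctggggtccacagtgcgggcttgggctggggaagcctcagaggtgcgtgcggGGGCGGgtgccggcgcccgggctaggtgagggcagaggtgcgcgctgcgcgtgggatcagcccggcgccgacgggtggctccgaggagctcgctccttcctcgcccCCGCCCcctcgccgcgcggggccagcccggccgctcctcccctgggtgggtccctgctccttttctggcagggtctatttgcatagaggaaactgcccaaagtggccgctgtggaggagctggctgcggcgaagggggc
Each of these last windows held 2 GC boxes, and that of COL26A1, which fell in line 1, held 0. The GC box was present in 54.5% of the collagen windows and in 45.0% of all 35116 windows, CCAAT in 31.8% and 34.6%, and TATAAA in 18.2% and 11.5%. The AP-1 site TGANTCA, also searched, was present in 2.3% of the collagen windows (1 of 44) and in 7.7% of all windows. A match describes the letters of the window and is no evidence of binding.

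Counted over the tested members, line 1 had 2 higher (COL1A1 and COL3A1) and 3 lower (COL16A1, COL23A1 and COL26A1) of 16 by edgeR's quasi-likelihood test at an adjusted p under 0.05, while 4.75% of all 14711 tested entries were higher and 8.27% were lower. Line 2 had 1 higher (COL11A1) and 2 lower (COL1A1 and COL16A1), against 5.47% and 8.52% of all entries. Between the lines, 4 members were higher in line 1 and 2 were lower, against 5.71% and 7.1% of all entries. For the mean of both lines, 2 members (COL3A1 and COL11A1) rose and 3 (COL16A1, COL23A1 and COL26A1) fell, against 4.64% and 9.57% of all entries. The line 2 count was higher without either library of line 1, and the count for the mean was lower without either control library. The share of all entries called in those fits is not given here, so these shifts are not read as results about the members. The median log2 fold change of the 16 was 0.00 in line 1 cells and -0.23 in line 2 cells, and that of all entries was 0.01 and 0.02. The contrasts share the control libraries, so the values of the lines are not independent.

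**Figure D2:**
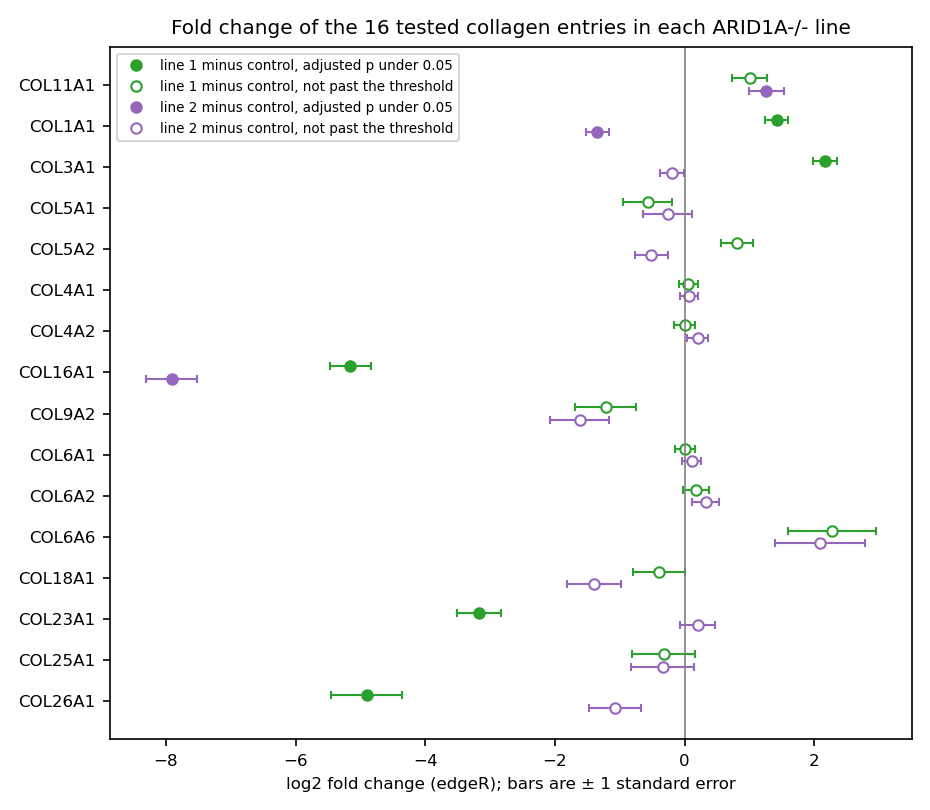
Log2 fold change against the control (horizontal axis, edgeR, bars ± 1 SE) of the 16 tested collagen entries in line 1 and line 2, filled where the adjusted p was under 0.05. COL1A1 lies on opposite sides of 0 in the lines (1.42 and -1.34), COL16A1 is far to the left in both (-5.16 and -7.91), and the type IV entries sit at 0.

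Of the 5 tested fibrillar genes, COL1A1 and COL3A1 rose in line 1, and COL11A1 rose and COL1A1 fell in line 2. COL1A1, which encodes the main chain of type I collagen, was the most abundant collagen RNA of the control. Its level was 60.2 and 62.6 RPKM in the control (61.4 ± 1.69, SD, n = 2), 156 and 171 in line 1 cells, 30.3 and 19.9 in line 2 cells and 17.1 in the ARID1A+/- library. The groups did not overlap: both line 1 libraries stood above both control libraries, and both line 2 libraries and the ARID1A+/- library stood below them. Within a kit, line 1 over control was 2.59 (SMARTer) and 2.74 (KAPA), and line 2 over control was 0.503 and 0.318. By edgeR's quasi-likelihood test with Benjamini-Hochberg adjustment over 14711 entries, the log2 fold change was 1.42 ± 0.18 (SE) in line 1 (adjusted p = 0.0052) and -1.34 ± 0.18 in line 2 (adjusted p = 0.0059). The mean over both lines, 0.04 ± 0.15 (edgeR adjusted p = 0.90), hides these opposite changes. Without the SMARTer control library the line 1 change was 1.26 and no longer passed (edgeR adjusted p = 0.073).

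COL1A2, whose chain joins that of COL1A1 in type I collagen, was almost absent. It had 5 and 2 counts in the control, 0 and 1 in line 1 cells, 0 and 0 in line 2 cells and 6 in the ARID1A+/- library. The type I RNA of these cells thus came almost wholly from 1 of its 2 genes, at every level of COL1A1.

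COL3A1, the chain of type III collagen, rose in line 1 and did not pass the threshold in line 2. Its level was 1.52 and 1.60 RPKM in the control, 6.24 and 7.80 in line 1 cells, 1.53 and 1.27 in line 2 cells and 6.49 in the ARID1A+/- library. Line 1 stood apart from all other replicated libraries, and line 2 lay around the control. The edgeR log2 fold change was 2.17 ± 0.18 in line 1 (adjusted p = 0.0012) and -0.19 ± 0.18 in line 2 (adjusted p = 0.53), and the difference between the lines was 2.36 ± 0.18 (edgeR adjusted p = 0.0011).

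COL5A1 and COL5A2, chains of type V collagen, which is built into type I fibrils, did not change past the threshold against the control. COL5A2 stood at 0.807 and 0.803 RPKM in the control, 1.31 and 1.51 in line 1 cells, 0.464 and 0.719 in line 2 cells and 11.0 in the ARID1A+/- library. Its log2 fold change was 0.80 ± 0.25 in line 1 cells and -0.51 ± 0.26 in line 2 cells, and only the difference between the lines, 1.31 ± 0.25, passed (edgeR adjusted p = 0.020). That call was lost without the SMARTer library of line 2 (edgeR adjusted p = 0.12). COL5A1 differed more between kits than between lines, with 1.73 and 0.418 RPKM in the control, 0.917 and 0.406 in line 1 cells, 0.889 and 0.647 in line 2 cells and 0.680 in the ARID1A+/- library.

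COL11A1, a chain of type XI collagen, was the only tested fibrillar gene that rose in line 2. It had 3.24 and 1.79 RPKM in the control, 4.29 and 5.60 in line 1 cells, 6.43 and 5.83 in line 2 cells and 2.14 in the ARID1A+/- library. All 4 ARID1A-/- libraries lay above both control libraries. The log2 fold change was 1.26 ± 0.27 in line 2 (edgeR adjusted p = 0.028) and 1.00 ± 0.27 in line 1 (edgeR adjusted p = 0.059), and the difference between the lines was -0.26 ± 0.26 (edgeR adjusted p = 0.58). The line 1 value passed without the SMARTer library of the control (edgeR adjusted p = 0.044), of line 1 (1.41, 0.0045) or of line 2 (1.02, 0.047), and by DESeq2 (1.01, adjusted p = 0.0038). The line 2 call was lost without the KAPA control library (edgeR adjusted p = 0.12) and without either library of line 2 (0.07 and 0.12).

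Of 11 fibrillar members 5 were tested. In line 1, 2 rose, 0 fell and 3 did not pass, and in line 2, 1 rose, 1 fell and 3 did not pass. Beside them, fibroblast markers outside the collagens moved too. Of 11 such markers, 8 were tested. DCN and LUM, small proteoglycans that bind collagen fibrils, rose in both lines, while PDGFRB, a growth factor receptor, fell in line 2. Among all 14711 tested entries, 4.75% were higher and 8.27% lower for line 1. For line 2 these shares were 5.47% and 8.52%. Whether the fibrillar or marker counts differ from such shares was not tested. LUM had 2.04 and 1.72 RPKM in the control, 17.1 and 17.3 in line 1 cells, and 3.25 and 3.42 in line 2. The summed marker level was 88.9 to 91.0 RPKM in the control, 130.0 to 134.0 in line 1 cells, 97.3 to 102 in line 2 cells and 144.5 in the ARID1A+/- library, FAP was at 0 counts in all 7 libraries and MFAP5 stayed under 0.1 RPKM. A change in the share of cells of a kind and a change of RNA per cell cannot be told apart in bulk RNA, and the part of these markers in the fibrillar result was not tested. The summed Schwann cell and neural crest markers ran from 74.0 to 108 RPKM in the control, 186 to 255 in line 1 cells and 9.42 to 12.2 in line 2 cells, carried by PMP22, a myelin protein gene that rose in line 1 and fell in line 2 as COL1A1 did, and by NGFR, the low-affinity neurotrophin receptor, which fell in both. Their part was not tested either.

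**Figure D3:**
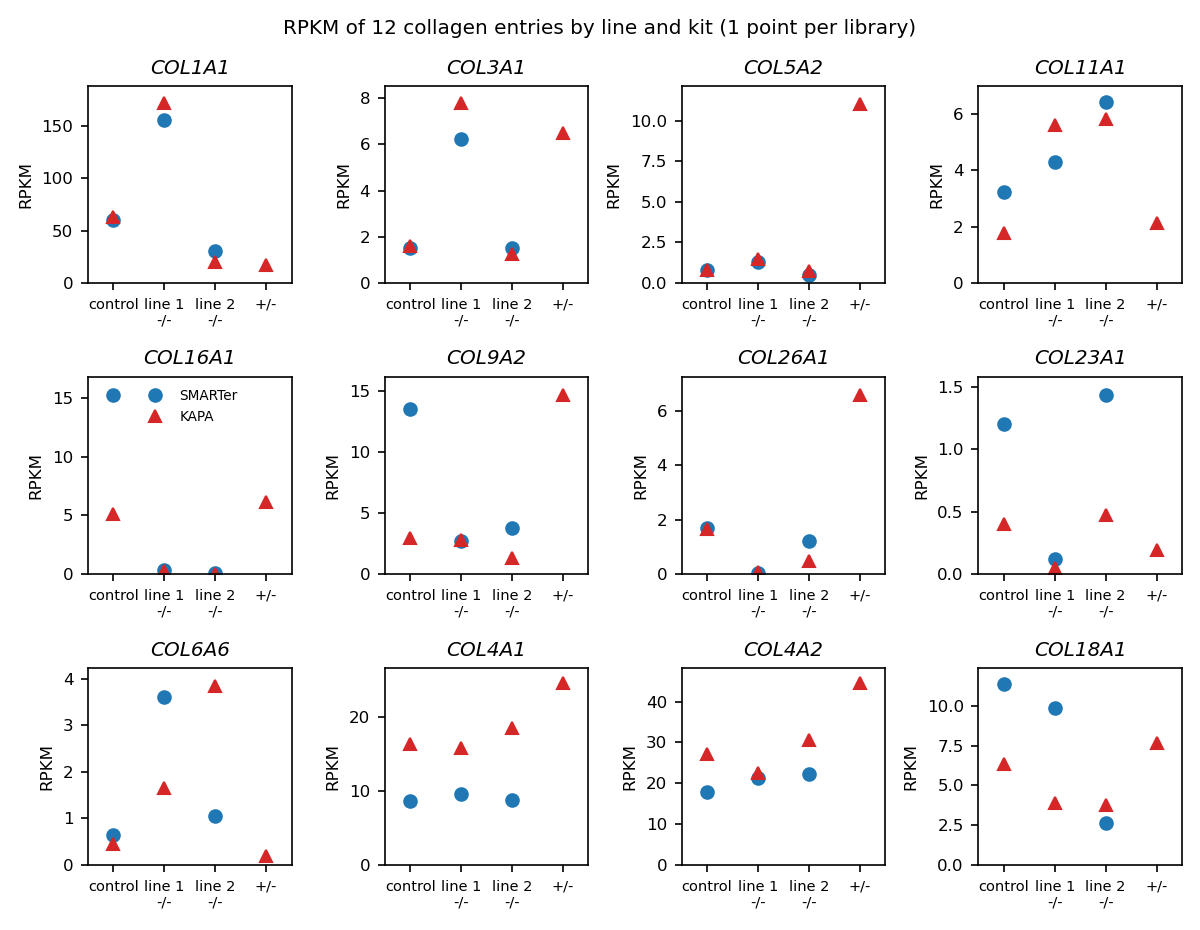
RPKM (vertical axes, from 0) of 12 collagen entries in the control, the ARID1A-/- lines and the ARID1A+/- line, with 1 point per library (circles SMARTer, triangles KAPA). COL1A1 is highest in line 1 (156 and 171 RPKM) and COL5A2 in the ARID1A+/- library (11.0), COL16A1 is near 0 in both ARID1A-/- lines, and the circles of COL4A1 lie below the triangles in each line.

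The genes of type IV collagen did not change past the threshold in either line. COL4A2 had 17.9 and 27.3 RPKM in the control, 21.4 and 22.4 in line 1 cells, 22.3 and 30.6 in line 2 cells and 44.6 in the ARID1A+/- library. COL4A1 had 8.61 and 16.3, 9.53 and 15.8, 8.76 and 18.5, and 24.5. The groups overlapped for both genes, and the kit moved COL4A1 more than the line did. The edgeR log2 fold changes of COL4A1 were 0.06 ± 0.14 in line 1 cells and 0.07 ± 0.14 in line 2 cells, and those of COL4A2 were 0.00 ± 0.16 and 0.20 ± 0.16 (edgeR adjusted p between 0.44 and 1). The ratio of COL4A1 to COL4A2 ran from 0.392 to 0.704 over the 7 libraries, COL4A2 being the higher in each. An antisense entry, COL4A2-AS1 (2.64 to 8.48 RPKM), overlaps COL4A2 in RefSeq, and since the sources do not say whether reads were counted by strand, reads of one may have been counted for the other. The remaining type IV genes, COL4A3, COL4A4, COL4A5 and COL4A6, had at most 27 counts in any library.

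COL16A1, a FACIT that links fibrils to other matrix parts, had the largest fold change of the 16 tested members in each line and fell to almost nothing. Its counts were 3974 and 749 in the control, 75 and 41 in line 1 cells, 17 and 2 in line 2 cells and 1216 in the ARID1A+/- library, which correspond to 15.2 and 5.12, 0.303 and 0.215, 0.070 and 0.012, and 6.15 RPKM. All 4 ARID1A-/- libraries were far below both control libraries, and the ARID1A+/- library lay between the 2 control libraries. COL16A1 met the minimum level through the control alone, so a lower value in both lines was built into its entry. Without the minimum level it was called as well (edgeR adjusted p = 5e-06 in line 1 and 1.4e-06 in line 2). The edgeR log2 fold change was -5.16 ± 0.32 in line 1 (adjusted p = 0.00044) and -7.91 ± 0.39 in line 2 (adjusted p = 0.00025), and it passed in all 14 alternative analyses of each line (log2 fold changes from -5.65 to -2.94 and from -8.94 to -3.20). Line 1 exceeded line 2 by 2.75 ± 0.44 (edgeR adjusted p = 0.011), a difference that rests on these low counts and that limma on log2(RPKM + 1) did not call (adjusted p = 0.66) and edgeR without the kit term did not call (adjusted p = 0.20).

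COL9A2, a chain of the cartilage FACIT type IX, had lower fitted values in both lines, neither past the threshold. It had 13.5 and 2.98 RPKM in the control, 2.71 and 2.75 in line 1 cells, 3.76 and 1.34 in line 2 cells and 14.7 in the ARID1A+/- library. The control libraries differed so much that line 2 overlapped them. The log2 fold change was -1.22 ± 0.47 in line 1 cells and -1.62 ± 0.46 in line 2 (edgeR adjusted p = 0.14 and 0.064), while DESeq2 called both (adjusted p = 0.037 and 0.0020). By edgeR the line 1 value passed without the KAPA library of line 1 (-2.14, adjusted p = 0.00057), and the line 2 value passed without the KAPA control library (-2.22, 0.043) and without either library of line 1 (0.00047 and 0.00042). Of the 8 untested FACIT members, COL14A1, which associates with type I fibrils, was seen almost only in line 2. It had 2 and 0 counts in the control, 6 and 13 in line 1 cells, 167 and 367 in line 2 cells and 0 in the ARID1A+/- library, and 1.78 RPKM in the KAPA library of line 2 was the highest level of any member below the minimum.

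The type VI chains COL6A1 and COL6A2 were abundant, differed with the kit and did not change past the threshold in either line. COL6A1 had 32.7 and 13.9 RPKM in the control, 27.3 and 16.8 in line 1 cells, 32.1 and 17.5 in line 2 cells and 18.6 in the ARID1A+/- library. COL6A2 had 21.0 and 7.91, 18.8 and 11.7, 21.2 and 13.4, and 4.79. In every line the SMARTer value was the higher. The edgeR log2 fold changes of COL6A1 were 0.01 ± 0.15 and 0.11 ± 0.15, and those of COL6A2 were 0.18 ± 0.20 and 0.33 ± 0.20 (edgeR adjusted p between 0.33 and 0.98).

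COL6A3, the large chain that joins those of COL6A1 and COL6A2 in type VI collagen, lay below the minimum and was at its highest in the control. Its counts were 804 and 154 in the control, 88 and 88 in line 1 cells, 44 and 24 in line 2 cells and 34 in the ARID1A+/- library. COL6A6, a chain of the same family, had 0.641 and 0.455 RPKM in the control, 3.60 and 1.66 in line 1 cells, 1.05 and 3.84 in line 2 cells and 0.202 in the ARID1A+/- library. Both lines lay above the control in each library, but the libraries of a line disagreed about the size. The log2 fold change of COL6A6 was 2.27 ± 0.68 in line 1 cells and 2.09 ± 0.70 in line 2 (edgeR adjusted p = 0.076 and 0.096). The line 1 value passed without the KAPA library of line 1 (3.04, adjusted p = 0.0024) and without either library of line 2 (0.0011 and 0.0023), and the line 2 value passed without the SMARTer library of line 2 (3.24, 0.0012) and without either library of line 1 (0.016 and 0.014). COL6A5 stayed under 0.2 RPKM in all libraries, and COL6A4 was not analysed here.

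Among the remaining classes, COL23A1 and COL26A1 fell in line 1 and none rose. COL26A1, a collagen described in testis and ovary, had 1.68 and 1.64 RPKM in the control, 0.040 and 0.073 in line 1 cells, 1.23 and 0.471 in line 2 cells and 6.58 in the ARID1A+/- library. Its counts in line 1 were 5 and 7, against 221 and 121 in the control. The log2 fold change was -4.90 ± 0.55 in line 1 (edgeR adjusted p = 0.0031) and -1.07 ± 0.41 in line 2 (edgeR adjusted p = 0.13), and the lines differed by -3.83 ± 0.56 (edgeR adjusted p = 0.0081). In line 2 the fall passed without either library of line 1 (edgeR adjusted p = 0.048 and 0.040).

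COL23A1, a transmembrane collagen, had 166 and 31 counts in the control, 16 and 5 in line 1 cells, 185 and 43 in line 2 cells and 20 in the ARID1A+/- library, all at or below 1.43 RPKM. It fell in line 1 within each kit, and line 2 stood near the control. The log2 fold change was -3.18 ± 0.34 in line 1 (edgeR adjusted p = 0.0027) and 0.20 ± 0.27 in line 2 (edgeR adjusted p = 0.67), with a difference between the lines of -3.38 ± 0.34 (edgeR adjusted p = 0.0025). The line 1 call was lost without the kit term, with a log2 fold change of -3.20 (edgeR adjusted p = 0.14), by limma on log2(RPKM + 1) (-0.69, adjusted p = 0.069) and by limma after quantile normalization (-0.52, adjusted p = 0.13). COL25A1, another transmembrane collagen, had 2.02 and 0.643 RPKM in the control, 0.942 and 1.09 in line 1 cells, 0.896 and 1.15 in line 2 cells and 0.357 in the ARID1A+/- library, and its groups overlapped.

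COL18A1, the multiplexin whose cleavage releases endostatin, had 11.4 and 6.38 RPKM in the control, 9.90 and 3.91 in line 1 cells, 2.63 and 3.74 in line 2 cells and 7.69 in the ARID1A+/- library. Both line 2 libraries lay below both control libraries. The log2 fold change was -1.39 ± 0.42 in line 2 (edgeR adjusted p = 0.074) and -0.39 ± 0.40 in line 1 (edgeR adjusted p = 0.55). It did pass in line 2 without the KAPA library of that line (-2.32, edgeR adjusted p = 0.0043) and without either library of line 1 (0.0033 and 0.0031). COL18A1 overlaps SLC19A1 and antisense entries in RefSeq, so its count is uncertain where reads were not separated by strand.

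Without the minimum level, 43 members could be tested. In line 1, 4 were higher and 7 lower, against 4.66% and 7.97% of 22631 entries. In line 2, 3 were higher and 8 lower, against 5.4% and 8.21%, and between the lines 4 were higher and 4 lower, against 5.21% and 6.16%. Against the control, the calls this added below the minimum were COL6A3, COL27A1 and COL13A1, lower in both lines, COL28A1, lower in line 1, COL21A1, lower in line 2, and COL14A1, higher in line 2 (edgeR adjusted p from 3.1e-05 for COL14A1 to 0.041 for COL21A1). Members above the minimum gained calls as well. COL11A1 (edgeR adjusted p = 0.019) and COL6A6 (0.024) were then higher in line 1. In line 2, COL6A6 was then higher (edgeR adjusted p = 0.038), and COL9A2 (0.023) and COL18A1 (0.03) were lower. Between the lines, the calls added without the minimum were COL14A1 (-4.83, edgeR adjusted p = 0.00012) and COL19A1 (-2.04, edgeR adjusted p = 0.0086). Both are FACIT genes, and both were lower in line 1 than in line 2. COL27A1, a fibrillar gene of low level, had 170 and 79 counts in the control, 38 and 29 in line 1 cells and 64 and 31 in line 2. COL13A1, a transmembrane collagen found at cell contacts, had 69 and 13 counts in the control and at most 4 in any ARID1A-/- library.

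Summed over classes, the fibrillar share of collagen RNA was largest in line 1, and most of it was COL1A1. The sum over the 44 members was 199 and 153 RPKM in the control, 265 and 265 in line 1 cells, 138 and 123 in line 2 cells and 168 in the ARID1A+/- library. Fibrillar genes made up 34.3% and 44.4% of it in the control, 63.7% and 70.5% in line 1 cells, 28.9% and 23.3% in line 2 cells and 22.4% in the ARID1A+/- library. Line 1 was thus the only line in which fibrillar RNA was the majority, and it was so in both kits.

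Without COL1A1, the sum over the other 43 members was 138.5 and 90.2 RPKM in the control, 109 and 93.8 in line 1 cells, 108 and 103 in line 2 cells and 151 in the ARID1A+/- library, so that the replicated lines overlapped. The FACIT sum was 29.8 and 8.84 RPKM in the control, 3.49 and 3.68 in line 1 cells, 5.46 and 3.61 in line 2 cells and 22.0 in the ARID1A+/- library. Both ARID1A-/- lines lay below the control and the ARID1A+/- library here. COL16A1 alone held 15.2 and 5.12 RPKM of this sum in the control and at most 0.303 in any ARID1A-/- library. COL9A2 held 13.5 and 2.98 in the control, 2.71 and 2.75 in line 1 cells and 3.76 and 1.34 in line 2 cells, and line 2 overlapped the control. The FACIT sum therefore does not show a fall of the whole class. Type IV made up 13.4% and 28.5% of the collagen sum in the control, 11.7% and 14.4% in line 1 cells, 22.5% and 40.1% in line 2 cells and 41.2% in the ARID1A+/- library. These sums are descriptions and were not tested.

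**Figure D4:**
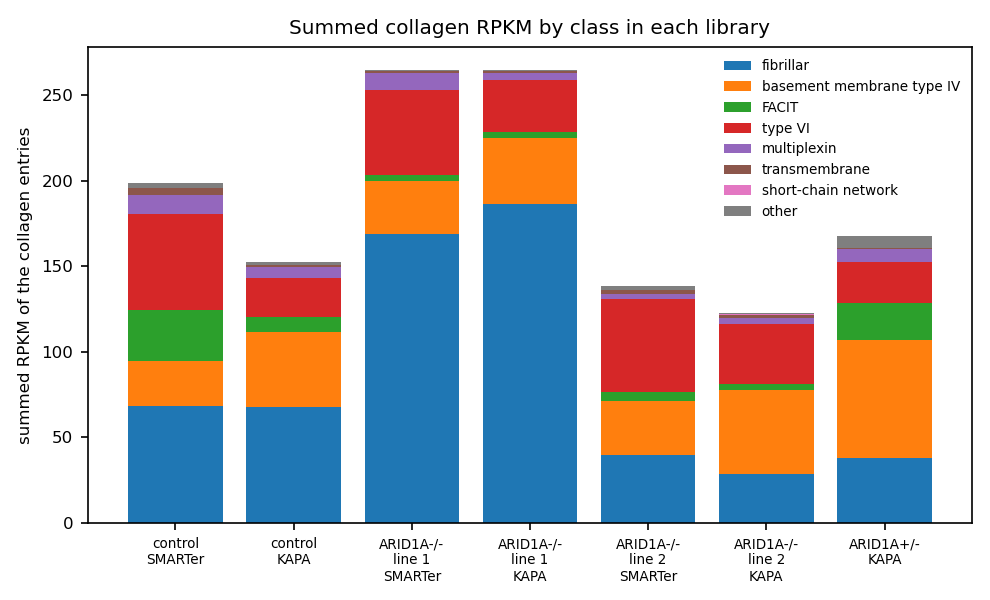
Stacked bars of the summed RPKM of the 44 collagen entries in each library, split by class. The bars of line 1 (265 RPKM in both kits) are the tallest, mostly fibrillar, and the type VI part is larger in the SMARTer than in the KAPA bar of the same line.

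Collagen values also differed between the library kits. In the kit term of the same model, 5 of the 16 members were higher in SMARTer libraries and 1 was lower, against 7.99% and 5.3% of all entries. The higher ones were COL23A1 (log2 difference 1.70 ± 0.25, edgeR adjusted p = 0.018), COL16A1 (1.46 ± 0.27), COL5A1 (1.39 ± 0.32), COL6A1 (1.10 ± 0.12) and COL6A2 (1.08 ± 0.17), and the lower one was COL4A1 (-0.74 ± 0.11, edgeR adjusted p = 0.019). In the RPKM of every line, COL5A1, COL6A1, COL6A2, COL16A1 and COL23A1 were higher by SMARTer and COL4A1 was lower. These calls were lost when either control library was left out, which leaves 1 residual degree of freedom: 0 of the 16 passed by edgeR (adjusted p of the 6 between 0.069 and 0.24), while 5 without the SMARTer and 7 without the KAPA control library had an unadjusted p under 0.05.

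The ratio of SMARTer to KAPA also differed between lines for some members. For COL9A2 it was 4.53 in the control, 0.986 in line 1 cells and 2.80 in line 2 cells, for COL6A6 it was 1.41, 2.17 and 0.274, and for COL18A1 it was 1.78, 2.54 and 0.702. These are single pairs of libraries, and how such pairs differ by line was not tested. The ratio of COL1A1 was 0.962, 0.910 and 1.52, and that of COL3A1 was 0.951, 0.800 and 1.21. Neither gene passed the threshold in the kit term (edgeR adjusted p = 0.20 and 0.61). The labels call the RNA polyadenylated and describe removal of ribosomal RNA with either kit, so how RNA was selected in each is uncertain, and since every KAPA library of a replicated line is named a repeat, kit and repeat cannot be told apart.

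**Figure D5:**
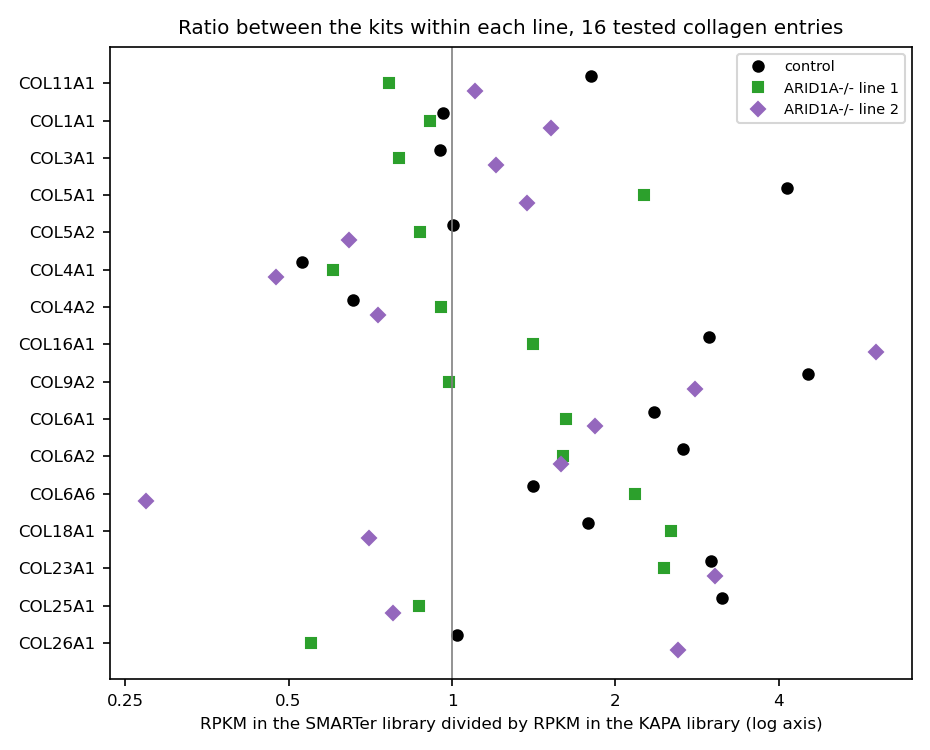
RPKM in the SMARTer library divided by RPKM in the KAPA library (horizontal log axis) for the 16 tested collagen entries, 1 point per line. All points of COL6A1, COL6A2, COL5A1, COL16A1 and COL23A1 lie to the right of 1 and those of COL4A1 to the left, while COL6A6 spreads from 0.274 to 2.17.

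The ARID1A+/- line had 1 library, so its values have no replicate check and no test was made. It was set beside the KAPA control library, on log2(RPKM + 0.5), for the 15 members with at least 0.5 RPKM in either. Of these, 5 were over 2-fold higher on this scale and 1 was over 2-fold lower, against 3.25% and 4.18% of 15008 entries. The higher ones were COL5A2 (11.0 against 0.803 RPKM, a log2 ratio of 3.15), COL9A2 (14.7 against 2.98), COL3A1 (6.49 against 1.60), COL26A1 (6.58 against 1.64) and COL19A1, a FACIT (0.841 against 0.121). The lower one was COL1A1 (17.1 against 62.6 RPKM, a log2 ratio of -1.84). COL3A1 and COL1A1 thus went in opposite directions in this library, and the ratio of COL3A1 to COL1A1 was 0.379, against 0.025 to 0.064 in the others. Against the SMARTer control, made with the other kit, 11 of 21 members were past 2-fold, 5 higher and 6 lower, against 3.97% and 6.32% of 15271 entries. Of the members, only COL5A2, COL3A1, COL26A1 and COL1A1 were past 2-fold in the same direction against both controls. COL9A2 (13.5 RPKM in the SMARTer control) and COL19A1 (0.280) were then within 2-fold on log2(RPKM + 0.5), with log2 ratios of 0.12 and 0.78. For COL19A1 this rests on the added 0.5 RPKM, since both of its levels were low. COL4A1 and COL4A2 were then past 2-fold higher, and COL6A2, COL6A3, COL25A1, COL23A1 and COL16A1 past 2-fold lower. COL4A1 and COL4A2 were higher than in any control or ARID1A-/- library, by 1.51 and 1.63 times over the KAPA control.

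The genes that make, export, bind and degrade collagen changed in both directions. Of 70 such genes in 4 lists, 47 were tested. In line 1, 7 were higher and 5 lower than in the control, in line 2, 1 was higher and 8 lower, and between the lines 10 were higher in line 1 and 1 was lower, against the shares of all entries given above. Their median log2 fold change was 0.17 in line 1 cells and 0.04 in line 2 cells, beside 0.01 and 0.02 for all entries. The line 1 and line 2 counts were lower without either control library, and the line 2 count was higher without either library of line 1. The count between the lines was lower without either library of line 2. The share of all entries called in those fits is not given here.

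Of 17 tested genes of chain modification and folding, 2 rose and 1 fell in line 1, against 4.75% and 8.27% of all entries. In line 2, 0 rose and 2 fell, against 5.47% and 8.52%. PLOD2, a lysyl hydroxylase that acts on collagen telopeptides, had 3.90 and 3.44 RPKM in the control, 5.25 and 6.88 in line 1 cells and 2.02 and 2.34 in line 2. It rose in line 1 (log2 fold change 0.71 ± 0.18, edgeR adjusted p = 0.045) and fell in line 2 (-0.80 ± 0.18, 0.032). SERPINH1, the collagen chaperone HSP47, rose in line 1 (0.67 ± 0.15, edgeR adjusted p = 0.035), and COLGALT2, a collagen galactosyltransferase, fell in both lines (-2.59 ± 0.41 and -1.74 ± 0.39, edgeR adjusted p = 0.010 and 0.032).

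Of 14 tested genes of export and propeptide processing, 4 rose and 1 fell in line 1, against 4.75% and 8.27% of all entries. In line 2, 1 rose and 2 fell, against 5.47% and 8.52%. PCOLCE, which enhances cleavage of the procollagen C-propeptide, had 31.8 and 31.8 RPKM in the control, 73.5 and 83.4 in line 1 cells and 37.4 and 48.0 in line 2 cells, and rose in line 1 (1.30 ± 0.14, edgeR adjusted p = 0.0027). ADAMTS2, which removes the N-propeptide, had 10.4 and 7.61 RPKM in the control, 11.3 and 12.3 in line 1 cells and 1.99 and 3.82 in line 2 cells, and fell in line 2 (-1.71 ± 0.32, edgeR adjusted p = 0.018). CREB3L2, a transcription factor of secretory genes, rose in both lines (0.71 ± 0.13 and 0.93 ± 0.13), and FURIN, a proprotein convertase, fell by 0.75 ± 0.14 in line 1 and fell by 1.00 ± 0.14 in line 2 (edgeR adjusted p between 0.0059 and 0.019 for these 4 values). The other 2 that rose in line 1, KLHL12 and SEC24D, both of COPII export, are named here after their values were seen.

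Of 6 tested collagen receptors, 0 rose and 3 fell in line 1, against 4.75% and 8.27% of all entries. In line 2, 0 rose and 1 fell, against 5.47% and 8.52%. DDR1, a receptor tyrosine kinase for collagen, had 6.30 and 5.07 RPKM in the control, 2.71 and 1.82 in line 1 cells and 5.87 and 5.99 in line 2 cells, and fell in line 1 (-1.33 ± 0.20, edgeR adjusted p = 0.0087). GPR56 (ADGRG1), an adhesion receptor that binds type III collagen, fell in both lines (-1.91 ± 0.37 and -2.74 ± 0.39), and MRC2, which takes up collagen fragments, fell in line 1 (-1.14 ± 0.19).

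Of 10 tested genes of collagen degradation, 1 rose and 0 fell in line 1, against 4.75% and 8.27% of all entries. In line 2, 0 rose and 3 fell, against 5.47% and 8.52%. MMP2, a gelatinase, had 23.1 and 26.4 RPKM in the control, 47.4 and 57.6 in line 1 cells, 15.5 and 13.3 in line 2 cells and 74.2 in the ARID1A+/- library. It rose in line 1 (1.09 ± 0.14, edgeR adjusted p = 0.0049) and fell in line 2 (-0.82 ± 0.14, 0.013), the same directions as COL1A1. In the ARID1A+/- library they parted, with MMP2 above both control libraries and COL1A1 (17.1 RPKM) below both. TIMP1, an inhibitor of matrix metalloproteinases, had 5.57 and 4.36 RPKM in the control, 9.65 and 7.50 in line 1 cells and 0.012 and 0.187 in line 2. It was almost lost in line 2 (-5.83 ± 0.66, edgeR adjusted p = 0.0030), and MMP15, a membrane-type metalloproteinase, fell there as well (-1.12 ± 0.19, edgeR adjusted p = 0.013).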

How the data were processed

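RNA of 7 libraries of NGP lines was analysed (75-base single-end reads). Per the submitters' processing notes, alignment used HISAT2 2.1.0 and the hg19 build. The counting program, annotation and strand setting are not given in those notes. The authors deposited for each library whole-number counts and RPKM values of 28517 entries. The deposited RPKM equals the count scaled by the entry's length and the library total to within 0.000501%.

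The 14711 entries whose mean over the 6 libraries of control and ARID1A-/- cells reached 0.5 RPKM were tested on counts with edgeR 4.0.16 (R 4.3.3): TMM scaling, quasi-likelihood test, terms for group and kit, 2 residual degrees of freedom, Benjamini-Hochberg adjustment, threshold 0.05. Standard errors were obtained as the log2 fold change over the root of the F statistic. The kit, given in the labels, paired libraries as the replicate block; same-kit deviations from group means correlated at 0.45 to 0.63. The script was tested on simulated data. Alternatives were limma 3.58.1, DESeq2 1.42.0, other filters and scalings, and leaving out each library.

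The members and gene lists were chosen with earlier results of these data known. Values per library are given for members with a mean of at least 1 RPKM in any group or past the threshold, and for at most 4 changed genes of each pathway list. The ARID1A+/- library entered no test. Libraries of a group differed by more than counting error. Promoter windows were read from RefSeq (GRCh38.p14), and their coordinates do not apply to the hg19 values.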

Additional observations from a re-analysis of the deposited data

Results flagged for a closer look

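Of the 16 tested collagen genes, 6 differed between the ARID1A-/- lines by edgeR's quasi-likelihood test of line 1 minus line 2. Among all 14711 tested entries, 5.71% were higher in line 1 and 7.1% were lower. Since both lines share the control, this is also the test of whether their changes differ. The log2 differences were 2.76 for COL1A1, 2.75 for COL16A1, 2.36 for COL3A1 and 1.31 for COL5A2, all higher in line 1, and -3.38 for COL23A1 and -3.83 for COL26A1, both lower in line 1. COL16A1 fell in both lines and differed in depth of the fall, and COL1A1 moved in opposite directions.

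Of the 47 tested collagen pathway genes, 11 differed in the same test, 10 higher and 1 lower in line 1, against 5.71% and 7.1% of all entries. TIMP1 (6.63), ADAMTS2 (2.09), MMP2 (1.91), PLOD2 (1.51), PCOLCE (0.92), PCOLCE2 (0.88), TIMP2 (0.85), MMP15 (0.82), SEC24D (0.71) and KLHL12 (0.64) were higher in line 1, and DDR1 (-1.37) was lower. PCOLCE2 and TIMP2 are named here after their values were seen.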

How the results depend on the processing

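Each count of called members was recomputed under each alternative. The share of all entries called by a test is given above only for the main analysis and, for each line and between the lines, without the minimum level. For the other alternatives, how a count compares with such a share was not tested. Line 1 against control had 5 calls, 11 without a filter and 9 with filterByExpr. Line 2 had 3 calls, 11 without a filter, 7 with filterByExpr, and 3 to 7 when 1 library was left out. Line 1 against line 2 had 6 calls and 3 after quantile normalization. The mean of both lines had 5 calls, 12 without a filter, 10 with filterByExpr, 3 by limma on log2(RPKM + 0.1), and 2 to 7 when 1 library was left out. The kit comparison had 6 calls, 3 by limma on log2(RPKM + 1), 0 by limma on log2(RPKM + 0.1), where 7 had an unadjusted p under 0.05, 3 after quantile normalization, and 0 to 9 when 1 library was left out. For the ARID1A+/- library, 6 members were past 2-fold against the KAPA control and 11 against the SMARTer control.

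The pathway genes had 12 calls in line 1 (6 by limma on log2(RPKM + 0.1), 2 to 14 when 1 library was left out), 9 in line 2 (14 without a filter, 14 with filterByExpr, 5 by limma on log2(RPKM + 0.1), 1 to 17 when 1 library was left out) and 11 between the lines (7 by limma on log2(RPKM + 0.1), 6 to 12 when 1 library was left out). Without the replicate block, calls fell to 3 between the lines, 3 for the mean of both lines, and 3, 3 and 5 for the pathway genes in line 1, line 2 and between the lines. Among the collagen genes, the calls then lost in each line and between the lines were COL23A1 in line 1, COL11A1 in line 2 (adjusted p = 0.13), and COL5A2 (0.074), COL16A1 (0.20) and COL23A1 (0.12) between the lines, all by edgeR. The cause of these differences was not tested. Filters change which members enter, and leaving out a library leaves 1 residual degree of freedom. Entry of members was not the whole difference without a filter, since members already tested gained calls too. These were COL11A1 and COL6A6 in line 1, and COL6A6, COL9A2 and COL18A1 in line 2.

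Of the 20 called collagen results, 226 of 274 alternative values kept the direction and the call and 48 kept the direction but missed the threshold. None of these changed sign. Of the 34 collagen results that were not called, 31 alternative values passed the threshold and 35 had the other sign without a call. Depth limits COL16A1, COL23A1 and COL26A1 in the lines where they were low.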

Other observations

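COL6A1 and COL6A2 are neighbouring genes whose chains join in type VI collagen, and the ratio of their RPKM was 1.31 to 1.75 in the 6 control and ARID1A-/- libraries and 3.87 in the ARID1A+/- library. COL6A2 was at 4.79 RPKM there, below every other library. The ratio of COL6A3 to COL6A1 was 0.041 and 0.033 in the control, 0.0057 and 0.012 in line 1 cells, 0.0025 and 0.0035 in line 2 cells and 0.0041 in the ARID1A+/- library, so COL6A3 was lower relative to its partner in every ARID1A mutant library. The ratio of COL5A1 to COL5A2 was 0.062 in the ARID1A+/- library and 0.269 to 2.15 in the others.

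COL21A1, a FACIT, had 71 and 13 counts in the control, 19 and 49 in line 1 cells, 8 and 1 in line 2 cells and 8 in the ARID1A+/- library. COL19A1 had 107 and 26, 34 and 32, 236 and 74, and 243 counts. ADAMTS3, a procollagen N-propeptidase, had 7.23 RPKM in the ARID1A+/- library and at most 0.506 in the others.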
